A study of Homo sapiens with 12 samples.

Results

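The genes described here are 34 genes of glucose uptake, glycolysis and lactate handling: 3 glucose transporters, the enzymes from hexokinase to pyruvate kinase, 2 lactate dehydrogenase subunits, 2 monocarboxylate transporters, the PFKFB and PDK regulators, and 3 genes of the hypoxia-inducible factor (HIF) pathway. They were taken from the counts table by symbol. All 34 symbols matched a row among the 58051 genes of the counts table, and 33 passed the low-count filter. The 1 that did not, EGLN3, a HIF prolyl hydroxylase, had at most 2 counts in any library. SLC2A3, PFKM, TPI1, GAPDH, ENO2 and LDHB, 6 of the 34, lie on chromosome 12.

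The study measured messenger RNA in THP-1, an established human monocytic leukaemia line, in order to examine syndecan-3 (SDC3), a cell-surface heparan sulfate proteoglycan, in macrophages. All 12 libraries came from cells turned into macrophages by a phorbol ester (phorbol 12-myristate 13-acetate, PMA, at 20 ng/ml over 24 h) and then given fresh medium. The 4 groups of 3 libraries were wild-type (WT) cells with PMA only, WT cells with PMA followed the next day by recombinant human IFN-γ, and SDC3 knockout (KO) cells, edited with CRISPR/Cas9, under the same pair of conditions. The IFN-γ dose, the time until harvest and the number of edited clones were not stated in the labels, so effects of SDC3 loss and differences between cell lines cannot be told apart. The labels do not say whether replicate libraries are separate cultures. The p-values therefore measure the spread between these libraries, which may be technical.

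Glycolysis splits glucose into pyruvate in the cytosol. Hexokinase and phosphofructokinase are its main regulated entry steps, lactate dehydrogenase interconverts pyruvate and lactate, and PDK kinases switch off the mitochondrial pyruvate dehydrogenase complex. Inflammatory activation of macrophages is known for increased glucose uptake and lactate release, part of it driven by HIF-1, and transcript levels alone do not give the flux.

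Library totals ran from 23616738 to 29426415 counts. SDC3 was measured at 196, 252 and 242 CPM (normalised counts, scaled to library size by TMM) in WT and 49.9, 48.2 and 43.9 CPM in KO cells without IFN-γ. With IFN-γ it was at 578, 590 and 572 CPM in WT and at 237, 237 and 244 CPM in KO cells. Within each condition the KO libraries did not overlap the WT libraries, but the edited cells kept SDC3 transcript, and KO libraries with IFN-γ lay in the range of WT libraries without it. Of 11 macrophage and monocyte markers 10 reached 1 CPM. The exception was CD68, with at most 17 counts, 85.8% of whose exon bases are shared with other genes. The list summed to 7204 to 7328 CPM in WT and 7104 to 7336 CPM in KO with IFN-γ, but single markers differed both ways. With IFN-γ LYZ was at 522 to 551 CPM in WT and 229 to 231 CPM in KO, and PTPRC at 853 to 919 and 1257 to 1307 CPM. MSR1 was at 37.4 to 45.6 CPM in WT and 6.54 to 6.97 CPM in KO without IFN-γ. Of the markers of other lineages, 4 of 4 erythroid genes were at 0 in every library and the T cell genes summed to at most 0.191 CPM. The B cell and epithelial lists summed to at most 18 and 2.48 CPM. The fibroblast list (4 genes) summed to 7.62 to 8.63 CPM in WT without IFN-γ and 16 to 18.6 CPM in KO with it, nearly all COL1A1, with COL1A2, COL3A1 and DCN at 2 counts or fewer. The endothelial list (3 genes), led by PECAM1, which leukocytes also express, summed to 327 to 338 CPM in WT and 353 to 370 CPM in KO cells with IFN-γ, and to 572 to 624 and 815 to 833 CPM without it. The part of these genes in the results below was not tested.

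Genes were called with edgeR's quasi-likelihood test at a Benjamini-Hochberg adjusted p under 0.05 over 17119 genes. In IFN-γ-treated cells, 10 of the 33 tested genes of the set were higher in KO than in WT and 14 were lower, where 23.0% of all tested genes were higher and 24.4% were lower. Without IFN-γ, 11 were higher and 17 lower, against 25.4% and 24.8% of all genes. IFN-γ raised 16 and lowered 10 in WT, against 28.6% and 27.9% of all genes, and it raised 17 and lowered 10 in KO cells, against 29.3% and 31.9%. The response to IFN-γ differed between the genotypes for 12, being more positive in KO for 7 and more negative for 5, against 7.81% and 8.17% of all genes. The median log2 fold change of the set was -0.09 for KO against WT with IFN-γ (-0.01 over all tested genes), -0.18 without it (0.01), 0.17 for IFN-γ in WT (-0.02), 0.15 for IFN-γ in KO (-0.05) and 0.06 for the difference of responses (-0.03). In bulk RNA a lower value can mean fewer expressing cells or less RNA per cell, which cannot be told apart.

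The scaling of the libraries bears on the small IFN-γ responses. With library totals in place of TMM, the median gene moved by -0.25 on the log2 scale in WT and by -0.30 in KO, and by -0.11 and -0.12 with upper-quartile scaling. The share of higher genes among all called genes was 50.6% in WT and 47.8% in KO with TMM, 25.1% and 23.4% with library totals, and 37.5% and 36.4% with upper-quartile scaling. For KO against WT with IFN-γ it was 48.5% with TMM and 35.7% with library totals, and for the difference of responses 48.9% and 35%. The set summed to 7180 to 7426 CPM in WT without IFN-γ and 8556 to 8829 CPM with it, which do not overlap, but as a share of the raw library totals to 0.798% to 0.828% and 0.793% to 0.829%, which do. In KO cells the shares were 0.722% to 0.75% without and 0.728% to 0.757% with IFN-γ, below every WT library. With library totals the counts within the set also changed, to 7 higher and 16 lower with IFN-γ in WT and 11 and 17 in KO, so the balance of rises and falls depends on the scaling (15 and 11, and 13 and 11, with upper-quartile scaling). For genes of the set, a direction given below that turns around with library totals is named as such. The lists of other pathway genes near the end were examined with TMM only.

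**Figure D1:**
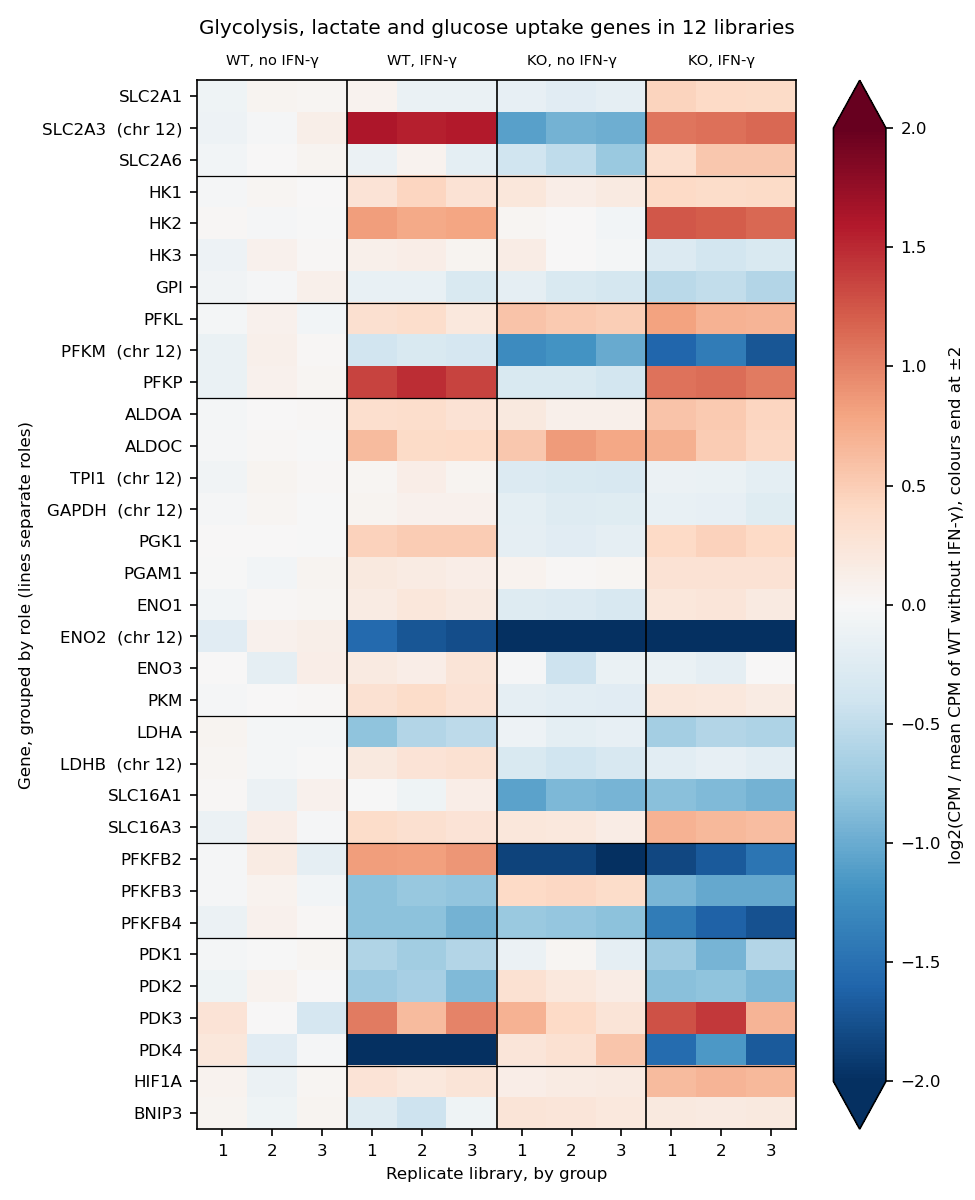
Heat map of the 33 tested genes (rows, by role) in the 12 libraries (columns), as log2 of CPM over the mean CPM of WT without IFN-γ. SLC2A3, HK2 and PFKP stand out as raised in the 6 libraries with IFN-γ, PDK4 as lowered there, and PFKM, ENO2, SLC16A1 and PFKFB2 as lower in KO than in WT in both conditions.

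Promoter sequence is shown for genes whose letters match known binding motifs and whose values are described below. The 250 bases before the RefSeq start (GRCh38.p14) of 31 of the 34 genes were searched on both strands, and SLC2A3, SLC16A1 and PFKFB2 were not among them. The core of the hypoxia response element, ACGTG, was found in 10 of 31 (32.3%), and in 18.7% of all 27305 promoters of the table. The 10 were ALDOA, ALDOC, BNIP3, ENO2, GAPDH, GPI, HK2, LDHA, PDK3 and PGK1. HK2, which rose with IFN-γ, and LDHA, which fell, are printed because both carry these letters, in capitals (HK2 at chr2:74833877-74834126 and LDHA at chr11:18394313-18394562, both + strand). CACGTG reads the same on both strands and counts as a pair of overlapping matches, so that LDHA has 5 matches in 3 places. The interferon-stimulated response element core GAAANNGAA was found in SLC16A3 (3.23% of 31, and 7.06% of all promoters; chr17:82228185-82228434, + strand). The windows of HK2, LDHA and SLC16A3 run past the start of the gene's bounds in the counts table. A match describes the letters only, and no binding was measured.
HK2: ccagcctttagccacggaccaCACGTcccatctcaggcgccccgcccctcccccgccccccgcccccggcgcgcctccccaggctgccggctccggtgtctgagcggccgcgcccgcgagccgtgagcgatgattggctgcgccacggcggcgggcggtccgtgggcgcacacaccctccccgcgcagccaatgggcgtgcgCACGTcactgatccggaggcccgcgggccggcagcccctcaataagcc
LDHA: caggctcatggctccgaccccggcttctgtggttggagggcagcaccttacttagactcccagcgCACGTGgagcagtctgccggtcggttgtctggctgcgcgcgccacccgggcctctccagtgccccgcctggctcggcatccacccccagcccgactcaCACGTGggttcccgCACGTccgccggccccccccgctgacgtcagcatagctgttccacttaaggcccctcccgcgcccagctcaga
SLC16A3: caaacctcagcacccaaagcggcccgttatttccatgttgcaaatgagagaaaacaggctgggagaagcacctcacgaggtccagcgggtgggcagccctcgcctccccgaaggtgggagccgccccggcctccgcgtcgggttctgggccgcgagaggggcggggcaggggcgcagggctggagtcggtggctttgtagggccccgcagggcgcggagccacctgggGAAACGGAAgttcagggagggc

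Glucose transporters move glucose across the membrane. In KO cells all 3 were raised by IFN-γ, whereas in WT cells only SLC2A3 passed the test. The response differed between the genotypes for all 3 as counted, where 16% of all tested genes were called. For SLC2A3 this depended on how its near-identical copies were counted, as given below. In WT, SLC2A1 was called lower with upper-quartile scaling (-0.18) and with library totals (-0.32), and SLC2A6 with library totals (-0.33). SLC2A1 (GLUT1, the basal transporter of most cells; chr1:42925375-42959173) was at 47.8, 52.7 and 52 CPM in WT without IFN-γ and at 53.3, 46.1 and 46.2 CPM with it. In KO cells it was at 45.3, 43.3 and 44.9 CPM without and 69.1, 67 and 66.1 CPM with IFN-γ. The KO libraries with IFN-γ lay above all others, and the WT groups overlapped. The change with IFN-γ was -0.07 ± 0.06 (log2, SE, 3 against 3 libraries) in WT and 0.60 ± 0.06 in KO, and the difference of 0.67 ± 0.08 passed the test (edgeR adjusted p = 4.4e-08). SLC2A6 (GLUT6, a lysosomal member of the family; chr9:133471095-133479137) showed the same order at a lower level: 5.91, 6.14 and 6.37 CPM in WT without and 5.69, 6.42 and 5.35 CPM with IFN-γ. KO libraries had 4.68, 4.3 and 3.68 CPM without and 7.78, 8.88 and 8.95 CPM with it. KO cells thus had less SLC2A6 than WT without IFN-γ (log2 fold change -0.54 ± 0.13, adjusted p = 0.00077) and more with it (0.55 ± 0.13, 0.00049), with no overlap in either condition, and the responses differed by 1.09 ± 0.19 (adjusted p = 2.3e-05).

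SLC2A3 (GLUT3, a high-affinity transporter; chr12:7919230-7936275) was the most responsive of the 3. It was at 42.4, 44.5 and 49.4 CPM in WT without IFN-γ and at 140, 133 and 137 CPM with it. KO libraries had 21.5, 23.5 and 23 CPM without and 95.1, 97 and 101 CPM with IFN-γ, so that none of the 4 groups overlapped. IFN-γ raised it 3-fold in WT (log2 1.59 ± 0.05) and 4.3-fold in KO (2.11 ± 0.06), and KO cells had 49.9% of the WT level without and 71.5% with IFN-γ. SLC2A14, which lies beside SLC2A3 on chromosome 12 and is a near-identical copy of it, moved the other way: 5.59 ± 1.3 CPM in WT and 12.5 ± 0.502 CPM in KO without IFN-γ (SD, n = 3; log2 1.17 ± 0.12). Counts of SLC2A14 and 3 pseudogene copies came to 8.62% to 16.4% of those of SLC2A3 in WT and 54.1% to 56.6% in KO libraries without IFN-γ, and reads of the pair can be split between them. With the copies summed into SLC2A3, an alternative chosen after seeing the data, the genotype differences were -0.53 without and -0.39 with IFN-γ and the responses 1.51 in WT and 1.65 in KO. The difference of responses, 0.52 ± 0.08 as counted, was then 0.14 and no longer passed (edgeR adjusted p = 0.19, and from 1.0e-09 to 0.19 over 21 alternatives). Per kilobase of exon, SLC2A1 held 53.1% ± 1.3 of the level of the 3 transporters in WT without IFN-γ (SD, n = 3) and SLC2A3 38% ± 1.3. The length used here and below is that of all exons of the gene in the counts table, not of the transcripts present. Shares and rankings between genes depend on it. With IFN-γ SLC2A3 held 65.9% ± 1.2 in WT and 49.6% ± 0.94 in KO.

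**Figure D2:**
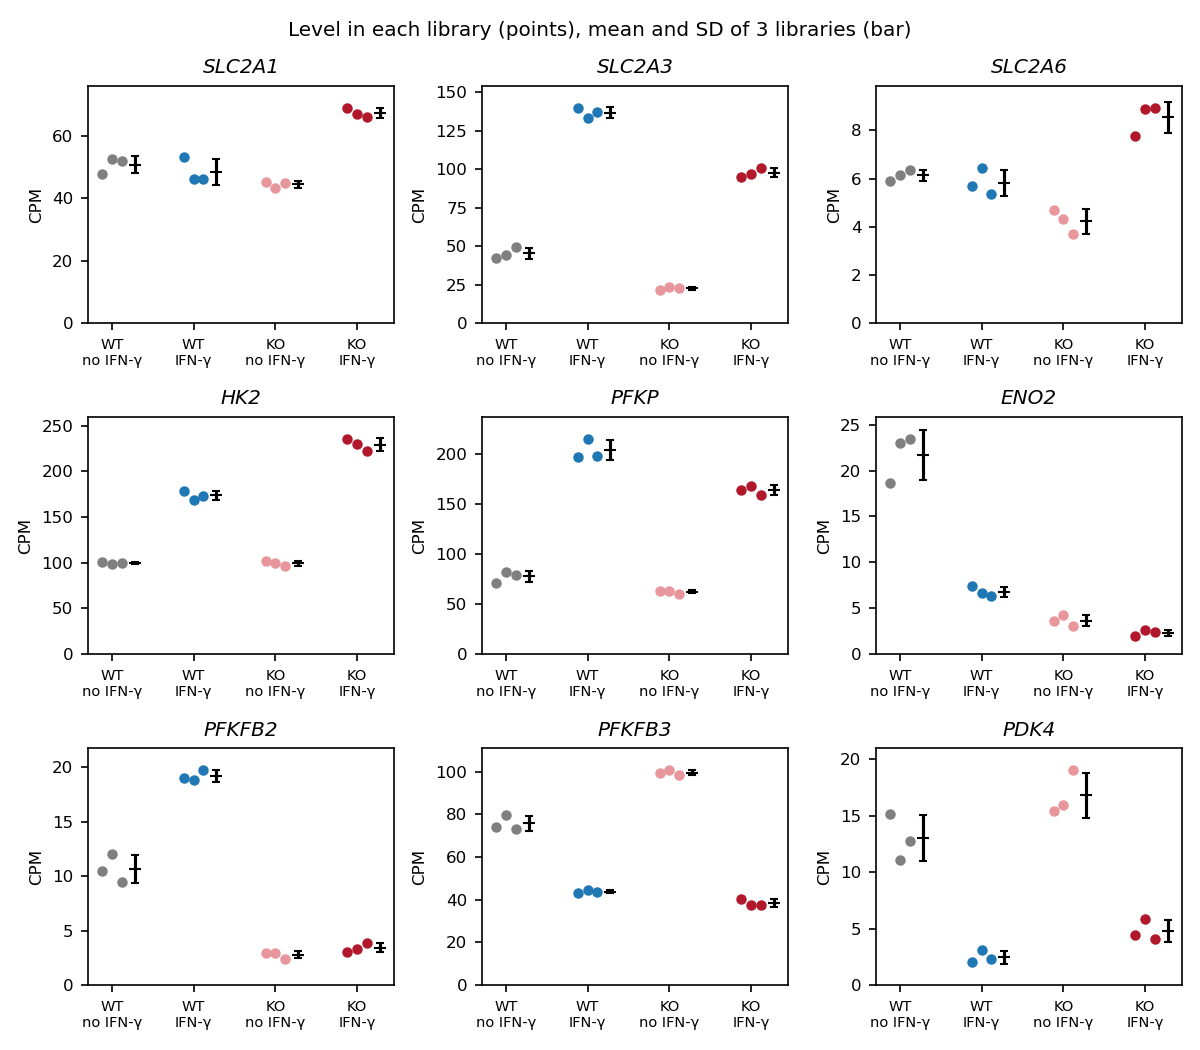
CPM of 9 genes in each library (points), by group on the horizontal axis, with the mean and SD of 3 libraries beside them. SLC2A1 and SLC2A6 rise with IFN-γ in KO cells while their WT groups overlap, and SLC2A3, HK2 and PFKP in both. PFKFB3 and PDK4 fall with IFN-γ in both, and ENO2 and PFKFB2 are lower in KO than in WT in both conditions.

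Hexokinases trap glucose in the cell by phosphorylating it. HK2, the inducible, mitochondria-bound isoform (chr2:74833981-74893359), was at 101, 98.7 and 99.7 CPM in WT and 102, 100 and 95.9 CPM in KO cells without IFN-γ, which overlapped. IFN-γ-treated libraries had 179, 169 and 173 CPM in WT and 236, 230 and 222 CPM in KO, with no overlap between any of these and the untreated libraries. The rise was 0.80 ± 0.04 on the log2 scale in WT and 1.21 ± 0.04 in KO, and the responses differed by 0.41 ± 0.06 (edgeR adjusted p = 1.7e-06). HK3, an isoform of myeloid cells, went the other way in KO cells: 78, 70.1 and 68.5 CPM without and 58.2, 54 and 56.6 CPM with IFN-γ (-0.36 ± 0.06). In WT it was at 65.1, 73.9 and 71.1 CPM without and 75.2, 76.4 and 72.7 CPM with IFN-γ, which overlap (0.09 ± 0.05, adjusted p = 0.15; -0.16 with library totals). The responses of HK3 differed by -0.45 ± 0.08 (adjusted p = 2.7e-05). HK1, the broadly expressed isoform, rose by 0.33 ± 0.04 with IFN-γ in WT and by 0.20 ± 0.04 in KO, but with library totals these were 0.08 (adjusted p = 0.086) and -0.10. Per kilobase, HK1 held 43.1% to 48.6% of the hexokinase level in the group means, while HK2 went from 22% ± 0.62 to 39.2% ± 0.71 with IFN-γ in KO and from 23.6% ± 0.93 to 31.2% ± 1.5 in WT (SD, n = 3). GPI, which turns glucose 6-phosphate into fructose 6-phosphate, was lower in KO with IFN-γ (155, 160 and 151 CPM against 205, 205 and 182 CPM, -0.34 ± 0.05) and without it (-0.28 ± 0.05), and it fell with IFN-γ by 0.20 in WT and by 0.26 in KO.

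Phosphofructokinase commits sugar to glycolysis and is built of liver (PFKL), muscle (PFKM) and platelet (PFKP) subunits. PFKP (chr10:3066333-3137712) was at 70.9, 82.1 and 79.2 CPM in WT and 62.9, 62.6 and 60.2 CPM in KO without IFN-γ. Once treated, libraries gave 197, 215 and 198 CPM in WT and 164, 168 and 159 CPM in KO. IFN-γ raised it 2.62-fold in WT (1.39 ± 0.05) and 2.64-fold in KO (1.40 ± 0.05), and the difference between these responses was 0.01 ± 0.07 (adjusted p = 0.94). KO was lower than WT by a like amount in both conditions (-0.32 ± 0.05 without and -0.31 ± 0.05 with IFN-γ).

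PFKM, on chromosome 12 (chr12:48105139-48146404), was at 28.9, 34.2 and 32.3 CPM in WT and 13.3, 13.9 and 15.8 CPM in KO without IFN-γ. Treated libraries had 24.4, 25.8 and 25.2 CPM in WT and 10.6, 12 and 9.71 CPM in KO. The KO libraries were below every WT library, at 45.1% of WT without and 42.8% with IFN-γ (log2 -1.15 ± 0.08 and -1.23 ± 0.09). PFKL, on chromosome 21, was higher in KO, at 291, 281 and 274 CPM against 189, 207 and 188 CPM without IFN-γ (0.54 ± 0.04) and at 341, 317 and 314 CPM against 244, 248 and 225 CPM with it (0.44 ± 0.04). Its 20 nearest tested neighbours on chromosome 21 had a median of 0.61 and 0.49 in the same comparisons. IFN-γ raised PFKL by 0.30 ± 0.04 in WT and 0.20 ± 0.04 in KO (0.05, adjusted p = 0.39, and -0.10 with library totals). Per kilobase, the subunit mix in WT went from 51.7% PFKL, 37.9% PFKP and 10.3% PFKM to 37.1%, 58.1% and 4.79% with IFN-γ. In KO it went from 68.1%, 27.6% and 4.25% to 50.7%, 47.3% and 2.06%. This mix depends on the exon lengths: without division by length PFKL stayed above PFKP in WT with IFN-γ, at a mean of 239 against 203 CPM.

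The middle and lower enzymes of glycolysis were the most abundant of the set. Per kilobase of exon the highest in WT without IFN-γ were GAPDH (331 CPM per kb), ENO1 (208), PKM (193), ALDOA (148) and TPI1 (129), and the same 5 led in KO cells with IFN-γ (290, 241, 222, 210 and 117). By CPM alone PKM was the highest, at a mean of 1658 CPM in WT without and 1902 CPM in KO with IFN-γ. Of the 10 enzymes from aldolase to pyruvate kinase, IFN-γ raised 6 and lowered 1 in each genotype, mostly by less than a factor of 1.5, against 28.6% and 27.9% of all genes in WT and 29.3% and 31.9% in KO. With library totals the raised ones were PGK1 and PKM in WT and PGK1, PKM and ENO1 in KO, and the lowered ones ENO2, TPI1 and GAPDH in both and ALDOC in KO. PGK1, which makes the first ATP of the pathway (chrX:78065188-78129296), rose from 268, 269 and 265 CPM to 368, 380 and 381 CPM in WT (0.49 ± 0.04). In KO it rose from 236, 227 and 235 CPM to 351, 367 and 353 CPM (0.62 ± 0.04). The treated libraries lay above all untreated ones. PKM, the last enzyme, rose by 0.32 ± 0.03 in WT and 0.40 ± 0.03 in KO, and ALDOA, the main aldolase, by 0.33 ± 0.04 and 0.37 ± 0.04, but with library totals ALDOA was at 0.08 and 0.07 and no longer called (edgeR adjusted p = 0.06 and 0.069).

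ENO1, the main enolase, was at 794, 831 and 840 CPM in WT and 687, 676 and 660 CPM in KO without IFN-γ. Under IFN-γ the level was 922, 963 and 932 CPM in WT and 959, 973 and 932 CPM in KO. The KO libraries were lower without IFN-γ (-0.29 ± 0.04) and overlapped WT with it (0.02 ± 0.04), and the responses of 0.19 ± 0.04 in WT (-0.06 with library totals) and 0.50 ± 0.04 in KO differed by 0.31 ± 0.05 (adjusted p = 7.8e-06). PGAM1, phosphoglycerate mutase, rose by 0.17 ± 0.04 in WT and 0.24 ± 0.04 in KO with TMM, values that turned to -0.08 and -0.06 with library totals. Its genotype difference with IFN-γ, 0.12 ± 0.04 (edgeR adjusted p = 0.023), was lost with upper-quartile scaling (0.10, 0.057) and with library totals (0.04, 0.5). It was also lost without WT IFN-γ replicate 3 (0.10, 0.093) or KO IFN-γ replicate 1 (0.12, 0.057). The adjusted p ran from 0.0049 to 0.5 over 16 alternatives.

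ENO2, the neuronal enolase isoform (chr12:6913745-6923698), showed the largest genotype difference of these 10 enzymes. It was at 18.6, 23 and 23.5 CPM in WT and at 3.64, 4.21 and 3.07 CPM in KO without IFN-γ. With IFN-γ it was at 7.37, 6.65 and 6.34 CPM in WT and 1.95, 2.61 and 2.37 CPM in KO. No group overlapped another. KO cells held 16.8% of the WT level without (-2.58 ± 0.12) and 34% with IFN-γ (-1.56 ± 0.15). ENO2 fell with IFN-γ in both genotypes, with a log2 fold change of -1.68 ± 0.12 in WT and -0.66 ± 0.16 in KO, a difference of 1.02 ± 0.21 (edgeR adjusted p = 0.00026). ENO2 was a small part of enolase, at 2.36% ± 0.22 per kilobase in WT without IFN-γ and 0.221% ± 0.031 in KO with it (SD, n = 3). ENO3, the muscle enolase, was at 6.9 to 8.9 CPM in the group means and passed the test in no comparison (adjusted p from 0.056 to 0.77), although 6 of 16 alternatives called its genotype difference with IFN-γ (-0.36 to -0.22).

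ALDOC, a minor aldolase, was higher in KO without IFN-γ (9, 11.1 and 10.6 CPM against 6.1, 6.26 and 6.17 CPM, 0.73 ± 0.12) and overlapped WT with it (0.08 ± 0.12). IFN-γ raised it in WT (0.47 ± 0.12, and 0.22 with library totals, adjusted p = 0.11), the change in KO was -0.18 ± 0.11, and the responses differed by -0.65 ± 0.17 (adjusted p = 0.0038). TPI1, triose phosphate isomerase, and GAPDH, both on the short arm of chromosome 12, were lower in KO by modest amounts. GAPDH (chr12:6533927-6538374) was at 969, 1009 and 978 CPM in WT and 857, 823 and 833 CPM in KO without IFN-γ (-0.23 ± 0.04), and at 1020, 1042 and 1044 CPM against 892, 875 and 830 CPM with it (-0.26 ± 0.04). TPI1 (chr12:6867119-6870948) was lower by 0.30 ± 0.04 without and 0.22 ± 0.04 with IFN-γ, and counts of its pseudogene copies came to 14.7% to 15.9% of its own in every library. The IFN-γ responses of GAPDH (0.07 in WT and 0.05 in KO) and TPI1 (0.07 and 0.15) turned to -0.18, -0.25, -0.18 and -0.15 with library totals, so no direction can be given for them. GAPDH, often taken as a reference gene, thus differed between the genotypes in both conditions.

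Lactate is made by lactate dehydrogenase and leaves or enters the cell through monocarboxylate transporters. LDHA, the subunit linked to lactate formation (chr11:18394388-18408425), was at 144, 135 and 134 CPM in WT and 128, 121 and 123 CPM in KO without IFN-γ. Treated cells gave 79.2, 92 and 96.3 CPM in WT and 86.5, 91.7 and 89.8 CPM in KO. Every treated library was below every untreated one, with a change of -0.63 ± 0.05 in WT and -0.47 ± 0.05 in KO. The genotype difference without IFN-γ, -0.15 ± 0.05 (adjusted p = 0.011), was not called without WT replicate 1 (0.059) or KO replicate 2 (0.06), and ran from 0.0021 to 0.06 over 16 alternatives. With IFN-γ LDHA differed by 0.00 ± 0.05. LDHB, the heart-type subunit, on chromosome 12 (chr12:21635342-21757857), was the more abundant one and lower in KO: 266, 247 and 263 CPM against 337, 318 and 325 CPM without IFN-γ (-0.34 ± 0.04). With IFN-γ the values were 281, 292 and 283 CPM against 373, 394 and 403 CPM (-0.45 ± 0.04). Its response to IFN-γ was 0.25 ± 0.04 in WT (0.00 with library totals) and 0.14 ± 0.04 in KO (-0.15 with library totals). Per kilobase LDHB held 83.2% ± 0.27 of lactate dehydrogenase in WT and 81.3% ± 0.34 in KO without IFN-γ, and 90.1% ± 0.55 and 86.9% ± 0.19 with it (SD, n = 3).

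SLC16A1 (MCT1, which carries lactate both ways; chr1:112911847-112957013) was at 87.8, 80.4 and 92.2 CPM in WT and 41.5, 46.7 and 45.6 CPM in KO without IFN-γ. Once treated, libraries gave 86, 82 and 94.8 CPM in WT and 48.6, 46.9 and 45 CPM in KO. KO cells held 51.4% of the WT level without (-0.96 ± 0.06) and 53.5% with IFN-γ (-0.90 ± 0.06), with no overlap. No IFN-γ response passed the test (0.01 ± 0.06 and 0.07 ± 0.06), and both were negative with library totals (-0.24 and -0.23). SLC16A3 (MCT4, the lactate exporter of glycolytic cells; chr17:82228397-82261129) differed in the opposite direction: 300, 297 and 285 CPM in KO against 238, 281 and 252 CPM in WT without IFN-γ (0.19 ± 0.04), and 414, 401 and 394 CPM against 330, 321 and 311 CPM with it (0.33 ± 0.04). IFN-γ raised it by 0.32 ± 0.04 in WT (0.07 with library totals, adjusted p = 0.19) and by 0.45 ± 0.04 in KO. Per kilobase SLC16A3 held 63.6% ± 3.3 of the pair in WT without IFN-γ and 83.6% ± 0.21 in KO with it (SD, n = 3).

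**Figure D3:**
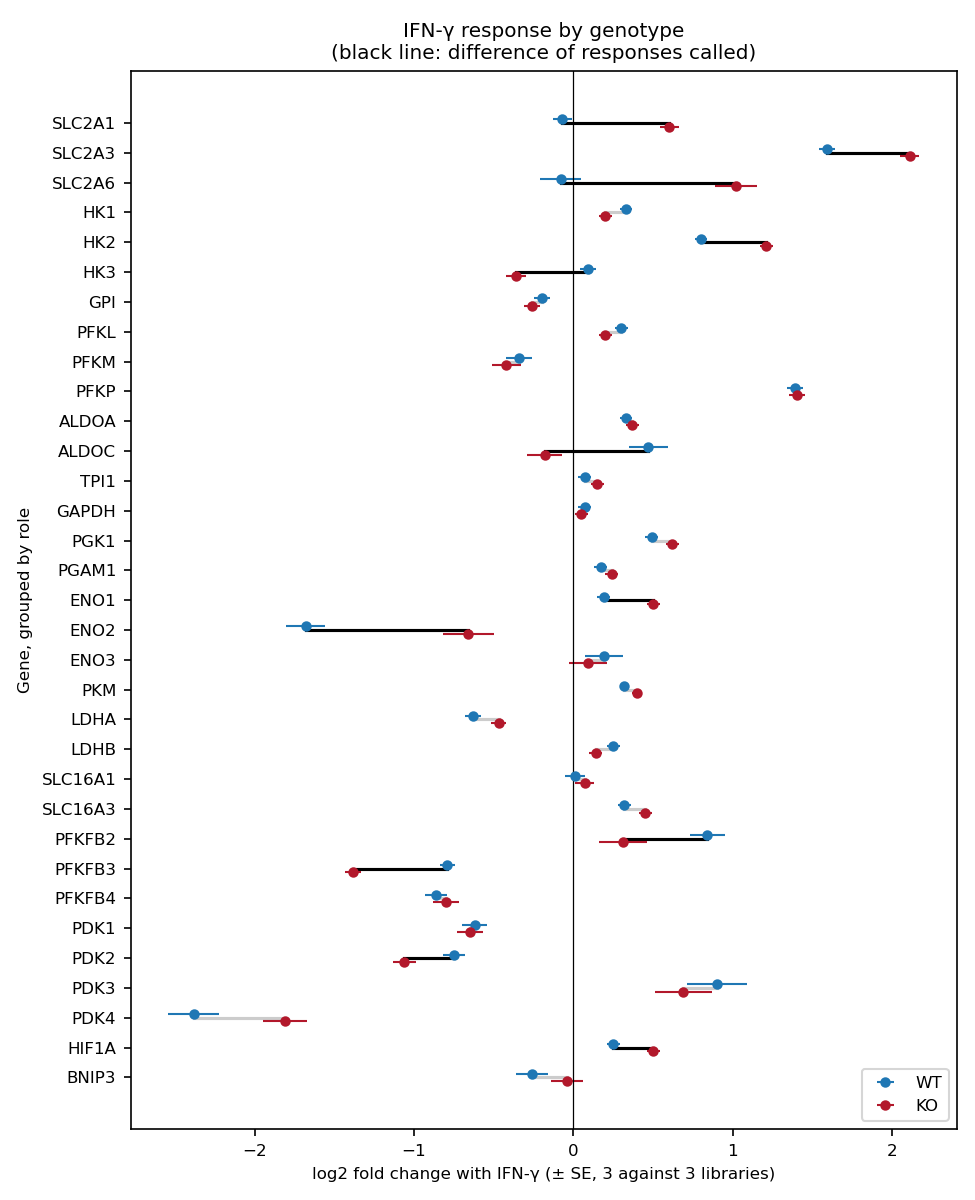
Log2 fold change with IFN-γ (± SE) of each gene in WT (blue) and KO (red), with a black line where the responses differed at an edgeR adjusted p under 0.05. The transporters, HK2, ENO1, ENO2 and HIF1A lie further to the right in KO, and HK3, ALDOC, PFKFB2, PFKFB3 and PDK2 further to the left.

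PFKFB enzymes set the level of fructose 2,6-bisphosphate, the main activator of phosphofructokinase. PFKFB3, the isoform with high kinase activity (chr10:6144934-6235545), was at 74.2, 79.9 and 73.1 CPM in WT and 99.5, 101 and 98.3 CPM in KO without IFN-γ. IFN-γ-treated libraries had 43, 44.7 and 43.7 CPM in WT and 40.4, 37.3 and 37.4 CPM in KO. KO cells were above WT without IFN-γ (0.39 ± 0.05) and below it with IFN-γ (-0.19 ± 0.06, adjusted p = 0.0037), with no overlap. The latter was not called without KO IFN-γ replicate 2 (-0.15, adjusted p = 0.059), and ran from 7.8e-05 to 0.059 over 16 alternatives. PFKFB3 fell with IFN-γ in both genotypes, with a log2 fold change of -0.79 ± 0.05 in WT and -1.38 ± 0.05 in KO, a difference of -0.59 ± 0.07 (adjusted p = 8.3e-08).

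PFKFB2 (chr1:207034366-207081024), the heart-type isoform, was at 10.5, 12 and 9.49 CPM in WT and 2.95, 2.97 and 2.42 CPM in KO without IFN-γ. Treated libraries had 19, 18.8 and 19.8 CPM in WT and 3.04, 3.34 and 3.9 CPM in KO. KO cells held 26% of the WT level without (-1.94 ± 0.13) and 17.9% with IFN-γ (-2.48 ± 0.12), and its 20 nearest tested neighbours had a median of -0.21 and -0.24. IFN-γ raised PFKFB2 in WT (0.84 ± 0.11), while in KO the change was 0.31 ± 0.15 (adjusted p = 0.079). The difference of -0.54 ± 0.19 (edgeR adjusted p = 0.04) was called in 8 of 21 alternatives only, with adjusted p from 0.016 to 0.12. Among the libraries whose omission ended this call were all 3 of WT with IFN-γ (0.06, 0.063 and 0.071), WT without IFN-γ replicates 1 and 3 (0.059 and 0.12), KO without IFN-γ replicates 1 and 2 (0.11 and 0.12) and KO with IFN-γ replicates 1 and 2 (0.12 and 0.11). PFKFB4 was lower in KO in both conditions (-0.78 ± 0.07 without and -0.71 ± 0.08 with IFN-γ) and lowered by IFN-γ in both genotypes (-0.86 ± 0.07 in WT and -0.80 ± 0.08 in KO), from 44.5, 51.4 and 49 CPM in untreated WT to 18.4, 15.8 and 14.5 CPM in treated KO libraries. Per kilobase PFKFB3 held 60.7% ± 1.1 of the 3 in WT and 78.8% ± 0.42 in KO without IFN-γ (SD, n = 3).

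The PDK kinases keep pyruvate out of the mitochondrial pyruvate dehydrogenase complex. In both genotypes IFN-γ lowered PDK1, PDK2 and PDK4 and raised PDK3. PDK4, an isoform of fasting and fat oxidation (chr7:95583499-95596491), fell most: it was at 15.2, 11.1 and 12.8 CPM in WT without and 2, 3.12 and 2.3 CPM with IFN-γ. In KO it was at 15.4, 16 and 19.1 CPM without and 4.46, 5.86 and 4.05 CPM with it. The changes were -2.38 ± 0.16 in WT and -1.81 ± 0.14 in KO, and the difference of 0.57 ± 0.21 did not pass (adjusted p = 0.069). PDK4 was higher in KO with IFN-γ (0.94 ± 0.18, adjusted p = 2.8e-05). The smaller difference without IFN-γ (0.37 ± 0.12, adjusted p = 0.0084) was not called without WT replicate 2 (0.27, 0.082) or KO replicate 3 (0.27, 0.092), and ran from 0.0012 to 0.092 over 16 alternatives.

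PDK1, a target of HIF-1 in many cells, was at 25.9, 26.5 and 27.2 CPM in untreated WT and 17.6, 16.5 and 17.7 CPM with IFN-γ, and 24.4, 27.3 and 23.6 CPM against 16.3, 14 and 17.7 CPM in KO. The responses were -0.62 ± 0.08 and -0.65 ± 0.08, and the genotypes overlapped in both conditions. PDK2 fell by 0.75 ± 0.07 on the log2 scale in WT and by 1.06 ± 0.07 in KO. The difference of -0.31 ± 0.10 (adjusted p = 0.021) was not called after leaving out any 1 of WT without IFN-γ replicate 1 (0.054), WT with IFN-γ replicates 1 and 2 (0.053 and 0.093), KO without IFN-γ replicate 1 (0.075) or KO with IFN-γ replicates 2 and 3 (0.052 and 0.065), and ran from 0.0067 to 0.093 over 21 alternatives. Of the exon bases of PDK2, 38.6% are shared with another gene, chiefly SAMD14. Without IFN-γ PDK3 was the least abundant of the PDK genes, while with IFN-γ PDK4 was. PDK3 was at 3.13, 2.59 and 2.05 CPM in untreated WT and 5.33, 4.03 and 5.13 CPM with IFN-γ (0.90 ± 0.19). In KO it was at 4.21, 3.41 and 3.1 CPM against 6.28, 6.88 and 4.17 CPM (0.69 ± 0.18, with overlap). Its genotype difference without IFN-γ, 0.47 ± 0.19 (adjusted p = 0.039), was called in 8 of 15 alternatives and lost with DESeq2 (0.061), limma-voom (0.065), library totals (0.06) and without WT replicates 2 and 3 (0.075 and 0.22) or KO replicates 1 and 2 (0.2 and 0.059), and ran from 0.015 to 0.22.

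HIF1A encodes the oxygen-regulated subunit of HIF-1, which is controlled largely at the protein level. It was at 173, 152 and 170 CPM in WT and 180, 184 and 186 CPM in KO without IFN-γ, and at 199, 192 and 197 CPM in WT and 256, 263 and 258 CPM in KO with it. The KO libraries with IFN-γ lay above all others. The response was 0.25 ± 0.04 in WT (0.00 and no longer called with library totals) and 0.50 ± 0.04 in KO, and the difference of 0.25 ± 0.06 passed (adjusted p = 0.003). The genotype difference was 0.40 ± 0.04 with IFN-γ and 0.15 ± 0.04 without it, the latter lost without WT replicate 2 (0.10, adjusted p = 0.063; 3.2e-04 to 0.063 over 16 alternatives). BNIP3, a mitophagy receptor and HIF-1 target, was at 13, 12.8 and 13 CPM in KO and 9.42, 8.51 and 10.6 CPM in WT with IFN-γ (0.45 ± 0.10, adjusted p = 0.00026). Counts of its pseudogene copies came to 16% to 30.3% of its own. Without IFN-γ the difference was 0.23 ± 0.10 (adjusted p = 0.038) and was called in 6 of 16 alternatives (0.0071 to 0.16), failing without WT replicates 2 or 3 (0.16 and 0.053) and without any 1 of the KO replicates (0.089, 0.077 and 0.062). Its response in WT, -0.26 ± 0.10 (adjusted p = 0.027), was called in 11 of 16 (2.8e-05 to 0.17), failing without untreated replicates 1 or 3 (0.074 and 0.083) or treated replicates 1 or 2 (0.063 and 0.17). In KO the change was -0.04 ± 0.10.

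The 6 genes on chromosome 12 were lower in KO in both conditions, 6 of 6, with a median log2 fold change of -0.47 with and -0.67 without IFN-γ. These medians use SLC2A3 as counted, without its copies. Of the 27 tested genes of the set on other chromosomes, 10 were higher and 8 lower with IFN-γ (median 0.02), and 11 and 11 without it (0.00). Among all tested genes 23.0% were higher and 24.4% lower with IFN-γ, and 25.4% and 24.8% without it. Over all 924 tested genes of chromosome 12, 400 were lower and 126 higher with IFN-γ (median -0.23) and 391 and 124 without it (-0.20). Below 22 Mb, where SLC2A3, TPI1, GAPDH, ENO2 and LDHB lie, 99 of 199 tested genes were lower and 9 higher with IFN-γ (median -0.34), and 93 and 13 without it (-0.29). Set beside the 20 nearest tested genes, GAPDH (-0.26 with IFN-γ, neighbours -0.35), TPI1 (-0.22, neighbours -0.31) and LDHB (-0.45, neighbours -0.32) were near the median of their surroundings. ENO2 (-1.56, neighbours -0.17) and PFKM (-1.23, neighbours -0.22) were further down, as was SLC2A3 as counted without IFN-γ (49.9% of WT, neighbours -0.09 on the log2 scale) but less so with it (-0.48, neighbours -0.34). With its near-identical copies summed in, SLC2A3 was at -0.53 without and -0.39 with IFN-γ. GAPDH, TPI1 and ENO2 lie close together, and genes of the set were not left out of the neighbours. The neighbours of these genes can therefore overlap and are not separate observations. A change of DNA copy number between the lines was not tested. Away from chromosome 12, the neighbours of PFKFB2 (-2.48 with IFN-γ) had a median of -0.24, with 10 of 20 lower and 4 higher, and those of PDK4 (0.94) a median of 0.15, with 9 higher and 3 lower. For SLC16A1 (-0.90) and PFKFB4 (-0.71) the neighbour medians were 0.03 and 0.05. ALDOA (0.18 with IFN-γ) and ENO3 (-0.28, not called) were near the medians of their neighbours, 0.20 and -0.36.

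**Figure D4:**
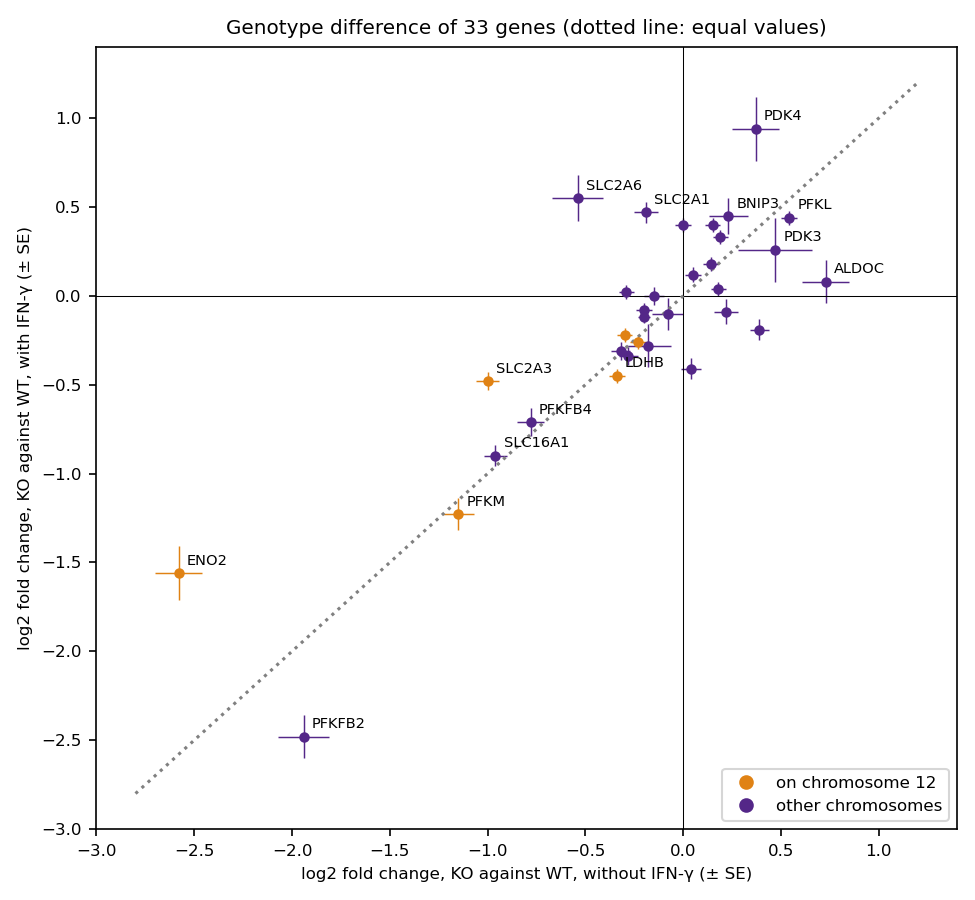
Log2 fold change of KO against WT (± SE) without IFN-γ (horizontal) and with it (vertical) for 33 genes, which come from separate libraries. The 6 chromosome 12 genes (orange) lie below 0 on both axes, SLC2A6 and SLC2A1 lie left of 0 and above it, and PFKFB2 and ENO2 are the lowest.

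**Figure D5:**
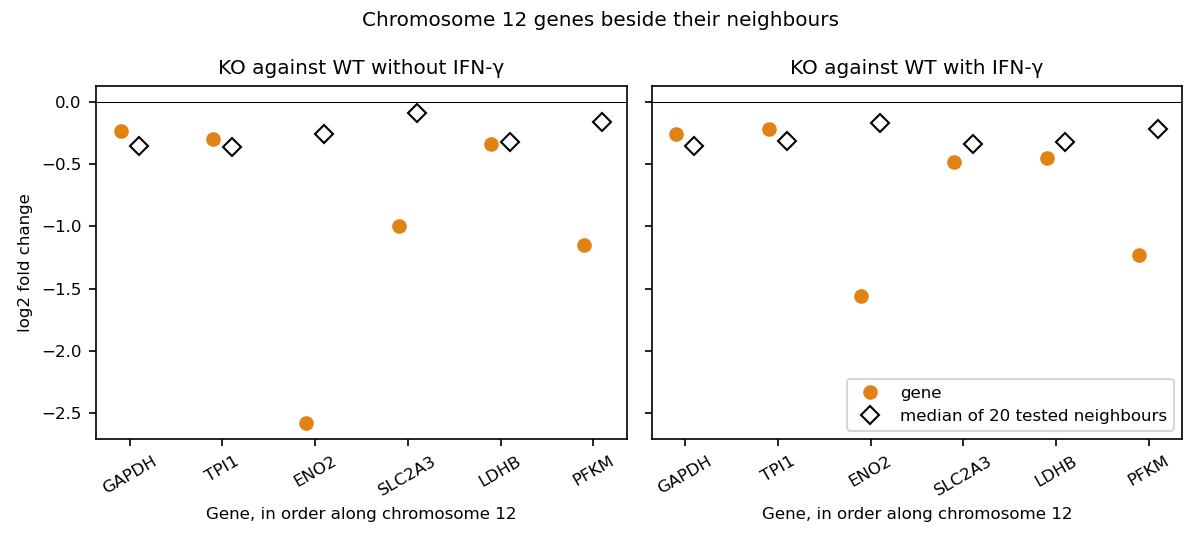
Log2 fold change of KO against WT of the 6 chromosome 12 genes (filled) and the median of their 20 nearest tested genes (open), without and with IFN-γ. GAPDH, TPI1 and LDHB lie close to their neighbours, and ENO2 and PFKM lie well below theirs.

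Other genes of the same metabolism were counted from lists chosen by function. Their counts and values are with TMM, and how they depend on the scaling was not examined. Of the other isoforms of transporters and enzymes, 15 of 26 were tested: 6 were higher and 4 lower in KO with IFN-γ (23.0% and 24.4% of all genes), and 7 and 2 without it (25.4% and 24.8%). Among called genes of at least 5 CPM in the higher group, SLC2A14 was the largest rise in both conditions. Its values were 0.62 ± 0.12 with and 1.17 ± 0.12 without IFN-γ, and its reads can be split with SLC2A3. SLC2A10, a transporter of the secretory pathway, was at 9.02 ± 1.18 CPM in WT and 4.05 ± 0.803 CPM in KO with IFN-γ (SD, n = 3; log2 -1.16 ± 0.14), and TIGAR, a fructose 2,6-bisphosphatase on chromosome 12, at 23.1 ± 0.658 CPM in WT and 12.1 ± 0.612 CPM in KO without it (-0.92 ± 0.09). Of 8 tested pentose phosphate genes, IFN-γ raised 5 and lowered 2 in each genotype (all genes: 28.6% and 27.9% in WT, 29.3% and 31.9% in KO). PGD, the pathway's second dehydrogenase, went from 642 ± 11.4 to 1057 ± 15.1 CPM in WT (0.72 ± 0.03) and from 894 ± 17.5 to 1454 ± 43.4 CPM in KO (0.70 ± 0.03), and TKT, a transketolase, from 384 ± 19.3 to 290 ± 13 CPM in WT and from 358 ± 10.1 to 211 ± 8.21 CPM in KO (-0.76 ± 0.04).

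Of 13 tested gluconeogenesis and glycogen genes, 4 rose and 5 fell with IFN-γ in WT (28.6% and 27.9% of all genes), and 4 and 7 in KO (29.3% and 31.9%). FBP1, which opposes phosphofructokinase, was at 52.9 ± 2.57 CPM in WT without and 9.99 ± 0.457 CPM with IFN-γ, and in KO at 12.5 ± 0.0128 and 1.57 ± 0.29 CPM (SD, n = 3). It fell by 2.41 on the log2 scale in WT and by 2.99 in KO, and KO cells held less than WT in both conditions (-2.08 ± 0.08 and -2.67 ± 0.13). PCK2, the mitochondrial enzyme that makes phosphoenolpyruvate, rose from 70.5 ± 2 to 310 ± 20.1 CPM in WT (2.14 ± 0.05) and from 64 ± 2.97 to 439 ± 8.34 CPM in KO (2.78 ± 0.05). PYGL, a glycogen phosphorylase, was higher in KO without IFN-γ, at 398 ± 5.59 CPM against 203 ± 18.8 CPM (0.98 ± 0.05). Of 11 tested genes of pyruvate entry into mitochondria, 5 were higher and 3 lower in KO with IFN-γ (23.0% and 24.4% of all genes), with MPC2, a subunit of the pyruvate carrier, at 71.6 ± 3.02 CPM against 42 ± 1.5 CPM (0.77 ± 0.06).

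Of 21 tested genes of the HIF axis, 10 were higher and 4 lower in KO with IFN-γ (23.0% and 24.4% of all genes), and 8 and 6 without it (25.4% and 24.8%). VEGFA, the angiogenic growth factor, was at 121 ± 1.04 CPM in KO and 70.7 ± 4.16 CPM in WT with IFN-γ (0.77 ± 0.05), and at 86.4 ± 1.72 and 49.2 ± 3.51 CPM without it (0.81 ± 0.05). AK4, a mitochondrial adenylate kinase induced by HIF-1, was at 0.837 ± 0.233 CPM in KO and 7.09 ± 0.734 CPM in WT without IFN-γ (-3.07 ± 0.17), and rose in KO to 5.44 ± 0.218 CPM (2.68 ± 0.18) and in WT to 16.5 ± 0.253 CPM (SD, n = 3). These lists did not move in 1 direction: their median log2 fold changes in KO against WT with IFN-γ ran from -0.04 (gluconeogenesis and glycogen) to 0.14 (pyruvate entry), beside -0.01 over all tested genes.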

How the data were processed

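Poly(A) RNA of 12 libraries, made from 1 µg of total RNA with a stranded kit per the labels' protocols, was analysed from 1 deposited table of read counts per gene on hg38. Per the file headers, the authors obtained these counts with featureCounts 2.0.3 over exons, for primary alignments, with mates counted separately and no strand option, so antisense and overlapping genes cannot be told apart. Even values made up 71.8% of counts between 1 and 19. The submitters' processing notes also name fastp 0.23.2, STAR 2.7.10b, BWA, Picard 2.27.5, Subread, FastQC and MultiQC 1.13. No source used here gives the annotation release or the aligner behind the counts. GENCODE 29 held 57492 of the genes, 96.3% with the same bounds, and its gene names were also used to find the copies. Exon overlaps were taken from the exon positions in the deposited counts. Mitochondrial genes had 0 counts.

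From these, CPM and log2 fold changes were derived with edgeR 4.0.16 in R 4.3.3 (filterByExpr, TMM, robust quasi-likelihood, a single model over the 12 libraries, without covariates, two-sided, Benjamini-Hochberg over 17119 genes), with figures made in Python 3.11.15. The SE of a log2 fold change was calculated back from its value and the F statistic of the test. It thus rests on a spread estimated over all 12 libraries. The fit was tested on simulated counts first. Library totals of 23616738 to 29426415 counts leave genes of a few counts, such as EGLN3, unmeasured. Replicates of a group differed by more than counting noise. All 34 genes are described by role, and other pathway genes were taken from the largest called rise and fall of each list and comparison among genes of at least 5 CPM in the higher group, of which some are given. 1 promoter motif that was searched is not reported here. The genes, lists and comparisons were chosen with earlier results of these data known. Alternatives were DESeq2 1.42.0, limma-voom (limma 3.58.1), 3 other scalings, 2 other low-count filters (at least 5 CPM in 3 libraries, or none), a log2 fold change of at least 1, only the compared libraries, a replicate block and leaving out each library. Summing near-identical copies was added after seeing the data.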

Additional observations from a re-analysis of the deposited data

Results flagged for a closer look

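A test of the difference itself found that the response to IFN-γ differed between KO and WT cells for 12 genes of the set (edgeR's quasi-likelihood test, adjusted p under 0.05). Of all tested genes 16% were called in this comparison. The response in KO minus that in WT, on the log2 scale, was 0.67 for SLC2A1, 0.52 for SLC2A3, 1.09 for SLC2A6, 0.41 for HK2, 0.31 for ENO1, 1.02 for ENO2 and 0.25 for HIF1A. It was -0.45 for HK3, -0.65 for ALDOC, -0.54 for PFKFB2, -0.59 for PFKFB3 and -0.31 for PDK2. ENO2 is among the first 7 because IFN-γ lowered it less in KO than in WT cells, not because it rose. The value of SLC2A3 depends on how reads are split with SLC2A14, and those of PFKFB2 and PDK2 were not called in part of the alternatives.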

How the results depend on the processing

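Over 10 alternatives of tool, scaling, filter and fit (9 for the difference of responses), and with each library left out, the total number of called genes of the set stayed within 1.5 times its value in every comparison. Asking also for a log2 fold change of at least 1 left 1603 genes (3 of the set) for KO against WT with IFN-γ, 1564 (4) without it, 2775 (4) for IFN-γ in WT, 3325 (7) in KO and 462 (2) for the difference of responses, because that is a stricter rule. With library totals in place of TMM the direction of the IFN-γ response turned around for several genes that were called with at least 1 of these scalings. In WT these were HK3 (-0.16), TPI1 (-0.18), GAPDH (-0.18), PGAM1 (-0.08), ENO1 (-0.06), SLC16A1 (-0.24) and HIF1A (-0.00). In KO they were HK1 (-0.10), PFKL (-0.10), TPI1 (-0.15), GAPDH (-0.25), PGAM1 (-0.06), LDHB (-0.15) and SLC16A1 (-0.23). ENO3, called with neither, also turned in WT (0.19 with TMM, -0.06 with library totals). In KO its response was 0.09 with TMM and ran from -0.21 to 0.17 over 16 alternatives, so it changed sign there too. The median of all genes moved by -0.25 and -0.30 in the same comparisons, and no called genotype difference or difference of responses of the set turned around under any alternative. Same replicate numbers did not pair the libraries: over 18 pairs the correlation of deviations ran from -0.149 to 0.252, was over 0.1 for 2, and 4 libraries were closest to their own number. With a replicate block, 8015 genes (25 of the set) were called for KO against WT with IFN-γ, 8525 (28) without it, 9610 (26) and 10399 (27) for IFN-γ in WT and KO, and 2664 (12) for the difference. Depth limits EGLN3 (at most 2 counts), PDK3 and ENO2 in KO cells.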
